A study of Mus musculus with 12 samples.

Results

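A set of 40 genes of niche adhesion and homing was examined for chromatin accessibility in mouse hematopoietic stem cells (HSCs). ATAC-seq, whose transposase cuts open DNA and leaves adapters, was run on 4 groups of 3 libraries: C57BL/6 WT and Mlkl-/- mice at 3 months (young) and at 18 months (aged). Mlkl encodes the pore-forming effector of necroptosis, and Mlkl-/- mice lack it. The comparisons ask how accessibility differs between the ages and between the genotypes. HSCs were sorted as Lin-/cKit+/Sca1+/Flk2-/CD48-/CD150+ bone marrow cells, and each library was a pool of cells from several mice, more of them for young than for aged libraries, so pool size and age cannot be told apart. The genes were chosen by their known function, with earlier results of these data known. A region belonged to a member if it lay in the gene body or within 10 kb of it, and 229 of the 71006 regions of the catalogue did. A region was a merged window of 250 bp on each side of a summit, and a summit was the highest point of a peak with a score, −log10 of the q-value, of 3 or more. Of these 229 regions, 46 lay within 1 kb of a start of their own gene (promoter), 15 within 1 kb of a start of another gene only, and 168 away from starts (distal). Each of the 40 genes held 1 to 18 regions, with a median of 5.

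An HSC leaves the blood, finds its niche in the marrow and is held there. Chemokine and lipid receptors such as CXCR4 and S1PR1 guide the cell along gradients, integrins and CD44 bind matrix and counter-receptors such as VCAM1, and talin, kindlins and vinculin tie integrins to actin. Small GTPases such as RAC1 and CDC42 set the shape and movement of the cell, and focal adhesion kinases signal from its contacts. Several of the other members, among them Tek, Robo4, Cdh5, Pecam1 and Icam2, are best known from endothelium.

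Lists differed in length, from 35714 to 61495 summits of score 3 or more, and read counts were not part of the files, so depth is unknown. WT lists held 37465 to 47220 summits when young and 50995 to 58652 when aged, and Mlkl-/- lists 35714 to 56368 and 47032 to 61495. For comparison the 35714 highest summits of each list were kept, and a region was called if it held at least one of them. Each region was then given its rank within the list, converted to a normal score, in which 0 stands for the middle rank of the 71006 regions. That rank falls among the regions without a call, which share the same value within a list, between -0.57 and -0.52. Called regions all lie above 0, so a gained or lost call moves the score by a step, even at the lowest called rank. In a bulk sample, fewer open cells and less openness per cell cannot be told apart. Summits at Y-linked genes were present in 3 of the 6 young lists and 0 of the 6 aged ones. The sex mix of the pools may thus differ with age, and the 2 cannot be fully told apart. The same tag stood in the names of 9 of 12 files, and Young Mlkl-/- 2, Aged WT 3 and Aged Mlkl-/- 1 lacked it. Promoters of the HSC markers Hlf, Kit, Meis1 and Ctnnal1 were called in 12 of 12 whole lists, that of Slamf1 in 0 and that of Mecom in 1. Of 6 myeloid markers, 5 had no promoter call in any list, and of 5 T cell markers 3 had none (Cd3d, Cd3e and Cd3g). Of the B cell markers given here, Pax5 and Cd79a had none, Cd79b was called in 4 lists and Ebf1 in 12. Of 7 endothelial markers, Kdr and Sox17 were called in 12 lists, Stab2 in 0 and the other 4 in 1 to 11. Of 7 stromal markers 2 were called in 12 lists and the other 5 in 2 to 11, and of 5 erythroid markers Epor was called in 12 and Klf1 and Slc4a1 in 0.

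The sequences below are those of the 6 regions with the smallest adjusted p among the 12 named for the size of their change with age, and of a Cd47 intron region that young lists did not call, so that the values given later can be tied to DNA. Each is 200 bases of mm10, plus strand, 5′ to 3′, around the highest summit. Capitals mark letters searched on both strands for 5 families of transcription factor. ETS factors were searched as AGGAAGT. For RUNX factors the letters were TGTGGTT, and GATA factors were searched as AGATAA. The AP-1 letters were TGANTCA, which read alike on both strands, and those of SP and KLF factors were GGGCGG.
Cd47 promoter, chr16:49800247-49800446: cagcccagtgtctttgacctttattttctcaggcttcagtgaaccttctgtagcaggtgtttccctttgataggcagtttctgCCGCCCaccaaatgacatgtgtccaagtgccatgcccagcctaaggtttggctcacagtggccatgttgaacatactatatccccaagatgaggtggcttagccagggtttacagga
Ptk2 intron, chr15:73318702-73318901: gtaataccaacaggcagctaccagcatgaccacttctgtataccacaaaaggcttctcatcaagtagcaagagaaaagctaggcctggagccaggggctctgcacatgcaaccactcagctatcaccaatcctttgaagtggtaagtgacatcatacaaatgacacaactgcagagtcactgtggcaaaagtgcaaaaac
Rac1 intron, chr5:143518236-143518435: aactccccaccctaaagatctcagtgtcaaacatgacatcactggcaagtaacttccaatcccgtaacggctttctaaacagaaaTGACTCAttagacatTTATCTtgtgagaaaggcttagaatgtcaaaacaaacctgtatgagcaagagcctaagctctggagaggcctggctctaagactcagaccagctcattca
Cd81 intron, chr7:143055990-143056189: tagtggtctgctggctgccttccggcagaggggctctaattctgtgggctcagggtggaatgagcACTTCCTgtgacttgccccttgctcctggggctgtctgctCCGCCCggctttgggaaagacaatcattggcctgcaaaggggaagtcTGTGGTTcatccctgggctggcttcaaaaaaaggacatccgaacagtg
Itga5 upstream, chr15:103370561-103370760: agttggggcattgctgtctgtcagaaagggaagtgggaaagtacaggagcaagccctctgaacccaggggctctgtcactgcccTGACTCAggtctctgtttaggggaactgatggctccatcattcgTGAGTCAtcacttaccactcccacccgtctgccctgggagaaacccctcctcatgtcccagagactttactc
Cdc42 intron, chr4:137326584-137326783: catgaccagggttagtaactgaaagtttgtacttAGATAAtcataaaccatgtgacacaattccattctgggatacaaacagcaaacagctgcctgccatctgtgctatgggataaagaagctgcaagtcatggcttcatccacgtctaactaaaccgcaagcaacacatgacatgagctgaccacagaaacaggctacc
Cd47 intron, chr16:49832430-49832629: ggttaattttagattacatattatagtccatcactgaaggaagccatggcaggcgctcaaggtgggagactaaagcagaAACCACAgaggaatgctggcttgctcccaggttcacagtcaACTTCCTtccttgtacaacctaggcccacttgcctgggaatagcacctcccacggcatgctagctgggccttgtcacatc

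The Itga5 upstream window held the AP-1 letters in 2 places, the Rac1 intron window AP-1 and GATA letters, the Cd81 intron window ETS, RUNX and SP/KLF letters and the Cd47 intron window ETS and RUNX letters. The Cdc42 window held GATA letters, the Cd47 promoter window SP/KLF letters and the Ptk2 window none of the 5. Over the 84 tested distal member regions, ETS letters stood in 29.8% of windows and GATA letters in 20.2%, beside 20.6% and 11.8% of the 23941 tested regions away from any start. RUNX letters stood in 14.3% beside 14.4%, AP-1 in 11.9% beside 13.5% and SP/KLF in 14.3% beside 10.1%. In the 36 tested member promoter regions SP/KLF letters stood in 52.8% of windows, beside 53.5% of the 13945 tested regions at a start, and ETS letters in 13.9% beside 8.12%, RUNX in 8.33% beside 3.63%, GATA in 2.78% beside 3.07% and AP-1 in 2.78% beside 4.17%. These shares are descriptions, with no test, and a match is not evidence of binding.

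Of the 40 genes, 37 had a promoter region and 19 had one that was called in all 12 equal-length lists, 47.5% of the members beside 42.2% of 21911 protein-coding genes. Jaml, Cdh5 and Nrp1 had no promoter region, and Vcam1 and Jaml had no region called often enough to be tested. For each gene the promoter region of highest mean rank is given, at any annotated start of that gene. Those of Pecam1, Itga6, Icam2 and Arhgap4, for example, lie at starts inside the gene, away from its 5′ end. Ranks below count from 1, the highest score in the list, to between 28428 and 30856, the lowest called, and are given for replicates 1 to 3 of each group.

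**Figure D1:**
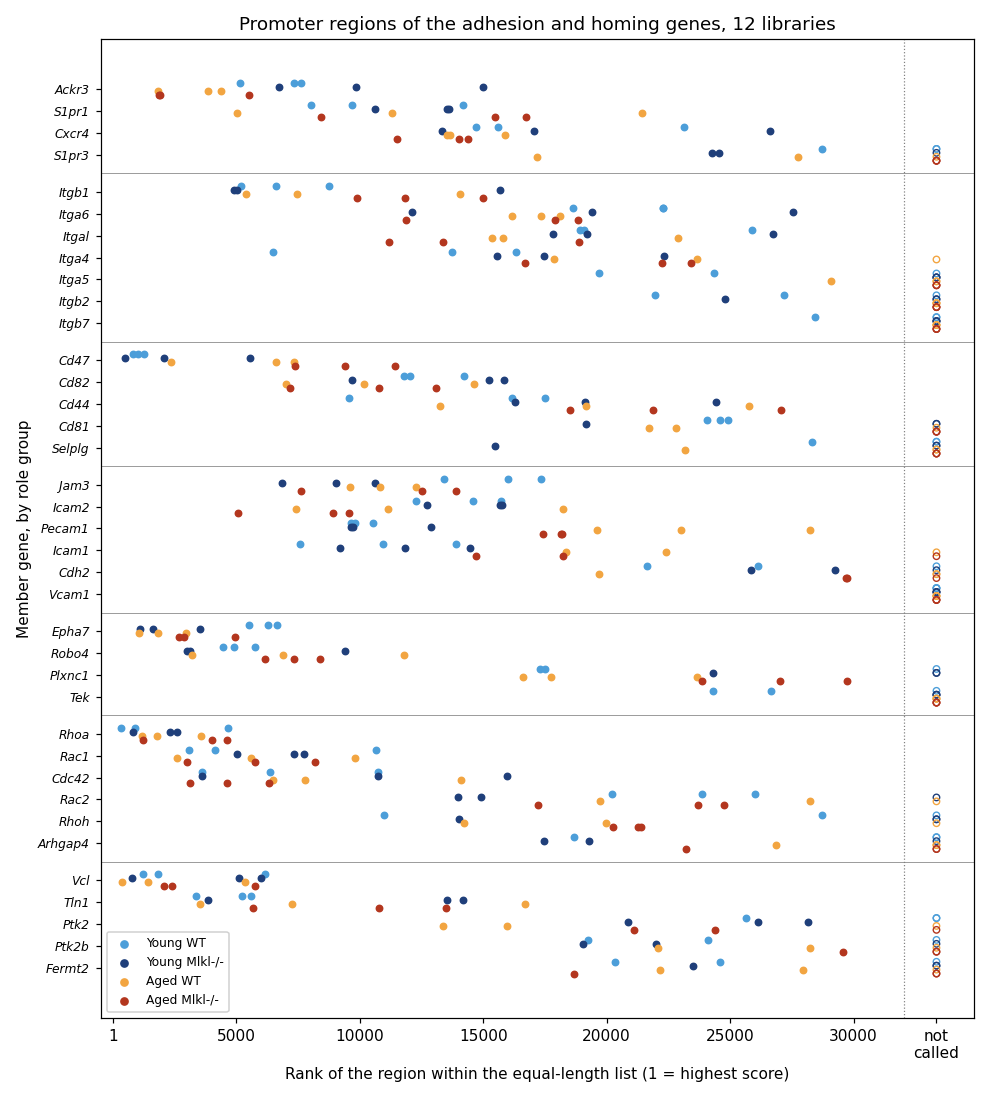
Within-list rank of the promoter region of 37 member genes in 12 equal-length lists (x axis, 1 is the highest score; open circles, not called), by role group, with 1 point per library colored by group. Rhoa and Vcl lie highest, and Vcam1, Itgb7 and Tek are called in 0, 1 and 2 lists.

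Among the homing receptors, the promoter of Ackr3, an atypical receptor that removes CXCL12, ranked highest and moved most with age. At chr1:90203709-90204277 it ranked 7344, 5165 and 7634 (young WT), 3833, 4398 and 1821 (aged WT), 9840, 6712 and 15005 (young Mlkl-/-) and 5524, 1853 and 1923 (aged Mlkl-/-). Of the 6 aged libraries, all but Aged Mlkl-/- 1 ranked it above every young library. The change with age was 0.54 ± 0.13 (SE) with a limma adjusted p of 0.0173, from means of 1.19 ± 0.23 in the 6 young and 1.73 ± 0.24 in the 6 aged libraries (SD). Cxcr4, the CXCL12 receptor that holds HSCs in the marrow, had a promoter region at chr1:128592065-128592874 that ranked 15594, 14695 and 23122 (young WT), 15884, 13540 and 13650 (aged WT), 17047, 26620 and 13347 (young Mlkl-/-) and 11506, 14374 and 14024 (aged Mlkl-/-). Its ages overlapped, and the change of 0.20 ± 0.15 did not pass the test (adjusted p 0.469, limma). The promoter of S1pr1, the receptor for exit toward blood sphingosine 1-phosphate, ranked 9683, 14160 and 8009 (young WT), 5030, 21429 and 11311 (aged WT), 10605, 13514 and 13630 (young Mlkl-/-) and 16733, 15490 and 8435 (aged Mlkl-/-). S1pr3 was called in fewer lists, with ranks of 28740 (1 of 3 young WT), 17184 and 27747 (2 of 3 aged WT), 24565 and 24278 (2 of 3 young Mlkl-/-) and no call (aged Mlkl-/-). In this group 8 of 11 regions were tested, with changes from -0.46 to 0.54 and a median of -0.08, 3 above 0 and 5 below.

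Integrins pair an alpha with a beta chain, and Itgb1 is the partner of Itga4, Itga5 and Itga6. The Itgb1 promoter ranked 8771, 5206 and 6590 (young WT), 7437, 5399 and 14069 (aged WT), 4885, 15663 and 5018 (young Mlkl-/-) and 9885, 14984 and 11848 (aged Mlkl-/-). Itga6, a laminin receptor chain, had a promoter that ranked 18648, 22277 and 22300 (young WT), 18122, 16181 and 17331 (aged WT), 19393, 27527 and 12127 (young Mlkl-/-) and 11853, 17916 and 18823 (aged Mlkl-/-). Both were called in every list. The promoters of the leukocyte beta chains lay lower: Itgb2 had ranks of 21964 and 27190 (2 of 3 young WT), no call (aged WT), 24800 (1 of 3 young Mlkl-/-) and no call (aged Mlkl-/-), and Itgb7 was called once, at 28443 in Young WT 3. For Itga5, the fibronectin receptor chain, the region 3.9 kb upstream of the start (chr15:103370411-103370964, intergenic) ranked 18796, 25113 and 17122 (young WT), no call (aged WT), 23999 (1 of 3 young Mlkl-/-) and no call (aged Mlkl-/-). It was called in all 3 young WT lists, in 1 of 3 young Mlkl-/- lists and in 0 of 6 aged lists, in the whole lists as well. Mean normal scores of 0.18 ± 0.56 in the 6 young and -0.55 ± 0.02 in the 6 aged libraries (SD) gave a difference of -0.73 ± 0.22 (SE). The aged SD comes only from the value that each list gives to regions without a call. A region had to be called in 3 lists to be tested, and this one met that minimum only through young lists, so it had to differ and its p is not read as a test. By genotype the difference was -1.12 ± 0.31 in WT and -0.34 ± 0.31 in Mlkl-/-. No member region passed for the interaction of age with genotype, so a difference between the genotypes was not shown. An intron region of Itgb7, 6.52 kb from its start (chr15:102225112-102225692), ranked 15730, 11043 and 9861 (young WT), 21085, 19942 and 29093 (aged WT), 18036, 16557 and 18930 (young Mlkl-/-) and 24085 (1 of 3 aged Mlkl-/-). Each young library lay above each aged one. Normal scores averaged 0.81 ± 0.19 in the 6 young and 0.11 ± 0.53 in the 6 aged libraries (SD), a change of -0.71 ± 0.21 (SE) with a limma adjusted p of 0.0431. Over the integrins 20 of 41 regions were tested, with changes from -0.73 to 0.55 and a median of -0.15, 9 above 0 and 11 below.

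CD47 is the signal that keeps macrophages from engulfing a cell, and its promoter was the one member region past the threshold for age (adjusted p under 0.01). The region lies at chr16:49799888-49800733, with its summit 186 bases before the start. It ranked 1241, 1021 and 824 (young WT), 7318, 2366 and 6611 (aged WT), 2056, 5550 and 492 (young Mlkl-/-) and 7388, 11427 and 9389 (aged Mlkl-/-). Each aged library but Aged WT 2 lay below every young library, and Young Mlkl-/- 2 and Aged WT 2 overlapped. The change with age was -0.76 ± 0.15 (SE) with a limma adjusted p of 0.00499, from means of 2.06 ± 0.36 in the 6 young and 1.30 ± 0.29 in the 6 aged libraries (SD). The region fell with age by this test. By genotype the change with age was -0.72 ± 0.22 in WT (adjusted p 0.0932, limma) and -0.80 ± 0.22 in Mlkl-/- (adjusted p 0.0665, limma). With list length as a covariate the change was -0.44 with an adjusted p of 0.213, and the call was lost; aged lists were on average the longer. The call was also lost when any 1 of 9 libraries was left out (adjusted p 0.0105 to 0.0209, limma) and was kept without Young Mlkl-/- 2, Young Mlkl-/- 3 or Aged WT 2. An intron region of the same gene, 32 kb from its 5′ end (chr16:49832280-49832852), was called in aged lists and no young one, with no call (young WT), 16939 and 11192 (2 of 3 aged WT), no call (young Mlkl-/-) and 28180 and 24559 (2 of 3 aged Mlkl-/-). At equal length none of the 6 young and 4 of the 6 aged lists called it, and over the whole lists 0 young and all 6 aged lists did. The difference was 0.76 ± 0.27 (SE), and 1.14 with lists of unequal length, and it met the minimum of lists only through aged lists.

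In Cd81, a tetraspanin that organizes adhesion receptors in the membrane, an intron region 3.35 kb from the start (chr7:143055697-143056353) ranked 14953, 13966 and 13307 (young WT), 23002 and 26255 (2 of 3 aged WT), 9346, 18059 and 23311 (young Mlkl-/-) and 27727 (1 of 3 aged Mlkl-/-). Mean normal scores of 0.79 ± 0.23 in the 6 young and -0.10 ± 0.50 in the 6 aged libraries (SD) gave a change of -0.89 ± 0.24 (SE) with a limma adjusted p of 0.0276. The lowest young library, Young Mlkl-/- 3, lay among the aged ones. The Cd81 promoter ranked 24071, 24604 and 24922 (young WT), 21729 and 22808 (2 of 3 aged WT), 19171 (1 of 3 young Mlkl-/-) and no call (aged Mlkl-/-). The promoter of Cd82, a tetraspanin linked to HSC quiescence, ranked 11774, 14238 and 12024 (young WT), 14606, 10169 and 7019 (aged WT), 15854, 15234 and 9701 (young Mlkl-/-) and 7190, 10790 and 13067 (aged Mlkl-/-) and was called throughout. That of Selplg, the selectin ligand used in rolling, ranked 28325 (1 of 3 young WT), 23187 (1 of 3 aged WT), 15483 (1 of 3 young Mlkl-/-) and no call (aged Mlkl-/-). In Cd44, the hyaluronan receptor, an intron region 27.6 kb from the 5′ end was called in 3 of the 6 young lists and 5 of the 6 aged ones; the change of 0.56 ± 0.30 did not pass (adjusted p 0.275, limma) and was 0.26 with list length as a covariate. Of this group 22 of 39 regions were tested, with changes from -0.89 to 0.76 and a median of 0.11, 14 above 0 and 8 below.

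Pecam1, an adhesion molecule of endothelium, platelets and stem cells, had a promoter region at chr11:106714947-106715546, with the summit in the UTR of exon 1 of a transcript that starts inside the gene. It ranked 9650, 10520 and 9796 (young WT), 19621, 28254 and 23025 (aged WT), 9646, 12889 and 9727 (young Mlkl-/-) and 18129, 18183 and 17412 (aged Mlkl-/-). The 6 young libraries lay together and above all 6 aged ones. Normal scores averaged 1.06 ± 0.07 in the 6 young and 0.55 ± 0.17 in the 6 aged libraries (SD), a change of -0.51 ± 0.14 (SE) with a limma adjusted p of 0.0272. The Icam1 promoter region, for a ligand of leukocyte integrins, ranked 7587, 10952 and 13898 (young WT), 18335 and 22388 (2 of 3 aged WT), 9186, 11812 and 14479 (young Mlkl-/-) and 18236 and 14691 (2 of 3 aged Mlkl-/-). Again the ages did not overlap. The change with age was -0.76 ± 0.25 (SE) with a limma adjusted p of 0.0681, from means of 1.01 ± 0.16 in the 6 young and 0.24 ± 0.64 in the 6 aged libraries (SD). Jam3, a junction molecule with a role in HSC retention, had a promoter with ranks of 17355, 13397 and 15985 (young WT), 9623, 10837 and 12286 (aged WT), 9029, 6840 and 10629 (young Mlkl-/-) and 13890, 7634 and 12514 (aged Mlkl-/-). The Icam2 promoter ranked 14567, 12285 and 15721 (young WT), 11159, 7419 and 18221 (aged WT), 12740, 15776 and 15673 (young Mlkl-/-) and 5078, 9582 and 8924 (aged Mlkl-/-). Both promoters were called in every library. The promoter of Cdh2 (N-cadherin) ranked 26117 and 21624 (2 of 3 young WT), 19680 (1 of 3 aged WT), 29228 and 25825 (2 of 3 young Mlkl-/-) and 29705 and 29720 (2 of 3 aged Mlkl-/-), and that of Vcam1 was called in 0 equal-length lists and in 2 whole lists. In this group 16 of 36 regions were tested, with changes from -0.76 to 0.51 and a median of 0.01, 8 above 0 and 8 below.

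Among guidance receptors, the promoter of Epha7, an ephrin receptor, ranked 6282, 6643 and 5517 (young WT), 1835, 2972 and 1067 (aged WT), 1098, 3530 and 1642 (young Mlkl-/-) and 2681, 4926 and 2889 (aged Mlkl-/-). Robo4, a receptor that helps HSCs lodge in the marrow, had a promoter that ranked 4465, 5746 and 4908 (young WT), 6889, 11793 and 3220 (aged WT), 2982, 3132 and 9392 (young Mlkl-/-) and 8370, 7348 and 6165 (aged Mlkl-/-). Both were called in every list. Tek, the angiopoietin receptor TIE2 that supports quiescence, had a promoter called in 2 lists, with ranks of 24315 and 26654 (2 of 3 young WT), no call (aged WT), no call (young Mlkl-/-) and no call (aged Mlkl-/-). Its intron region 122 kb from the 5′ end (chr4:94860730-94861287) gave no call (young WT), 22911 (1 of 3 aged WT), no call (young Mlkl-/-) and 21498, 28337 and 28114 (aged Mlkl-/-). It was called in 0 of 6 young lists. The difference of 0.60 ± 0.22 (SE) is given without a test, since only aged lists called it. In Plxnc1, a semaphorin receptor, an intron region 1.89 kb from the start was called in 4 of the 6 young lists and 0 of the 6 aged ones, with a difference of -0.86 ± 0.28 (SE), given without a test since only young lists called it. The promoter of Plxnc1 ranked 17499 and 17293 (2 of 3 young WT), 17732, 16599 and 23650 (aged WT), 24301 (1 of 3 young Mlkl-/-) and 27033, 23874 and 29726 (aged Mlkl-/-). Of these receptors 19 of 33 regions were tested, with changes from -0.86 to 0.60 and a median of 0.07, 12 above 0 and 7 below.

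Among the small GTPases, the promoter of Rhoa, which drives contraction and ranked highest by mean of the 37, ranked 313, 914 and 4676 (young WT), 1806, 1184 and 3561 (aged WT), 2322, 2600 and 806 (young Mlkl-/-) and 4610, 4020 and 1215 (aged Mlkl-/-). For Rac1, which drives protrusion and homing, the promoter ranked 4145, 3074 and 10671 (young WT), 5580, 2579 and 9809 (aged WT), 5035, 7317 and 7728 (young Mlkl-/-) and 8198, 3011 and 5736 (aged Mlkl-/-). Within Rac1, an intron region 9.7 kb from the 5′ end (chr5:143518025-143518664) ranked 7774, 5540 and 9914 (young WT), 22875 (1 of 3 aged WT), 19393, 27947 and 14090 (young Mlkl-/-) and 30234 and 23071 (2 of 3 aged Mlkl-/-). The 3 young WT libraries lay above all others, and 2 young Mlkl-/- libraries lay above all aged ones. Mean normal scores of 0.91 ± 0.42 in the 6 young and -0.09 ± 0.51 in the 6 aged libraries (SD) gave a change of -0.997 ± 0.24 (SE) with a limma adjusted p of 0.016. By genotype the change with age was -1.45 ± 0.34 in WT (adjusted p 0.0365, limma) and -0.55 ± 0.34 in Mlkl-/- (adjusted p 0.459, limma). The interaction of age with genotype was 0.90 ± 0.48 (adjusted p 0.965, limma), so a difference between the genotypes was not shown. In Cdc42, the polarity GTPase, an intron region 31 kb from the 5′ end (chr4:137326387-137326966) ranked 13654 and 17079 (2 of 3 young WT), 10836, 9595 and 16205 (aged WT), 14773, 20941 and 24965 (young Mlkl-/-) and 3723, 8570 and 7559 (aged Mlkl-/-). Normal scores averaged 0.46 ± 0.52 in the 6 young and 1.15 ± 0.29 in the 6 aged libraries (SD), a change of 0.69 ± 0.21 (SE) with a limma adjusted p of 0.0492. With list length as a covariate it was 0.44 (adjusted p 0.443, limma). In Rhoh, a GTPase without enzyme activity, an intron region 6.33 kb from the 5′ end was called in 2 of the 6 young lists and 5 of the 6 aged ones, with a change of 0.93 ± 0.30 (adjusted p 0.0646, limma). With list length as a covariate it was 0.44 (adjusted p 0.602, limma). The promoters ranked lowest in this group were those of Rhoh, with ranks of 28712 and 10973 (2 of 3 young WT), 19980 and 14217 (2 of 3 aged WT), 14006 (1 of 3 young Mlkl-/-) and 21260, 21405 and 20275 (aged Mlkl-/-), and of Arhgap4. The latter had ranks of 18664 (1 of 3 young WT), 26868 (1 of 3 aged WT), 17472 and 19292 (2 of 3 young Mlkl-/-) and 23220 (1 of 3 aged Mlkl-/-). Over this group 20 of 29 regions were tested, with changes from -0.997 to 0.93 and a median of -0.09, 8 above 0 and 12 below.

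Ptk2 encodes focal adhesion kinase, and the largest change with age among the 131 tested regions was in its intron, 104 kb from the 5′ end (chr15:73318552-73319099). It ranked 20503 (1 of 3 young WT), 15336, 16935 and 5739 (aged WT), 17727 (1 of 3 young Mlkl-/-) and 15513, 6513 and 8041 (aged Mlkl-/-). All 6 aged libraries lay above all 6 young ones. The change with age was 1.19 ± 0.27 (SE) with a limma adjusted p of 0.0101, from means of -0.15 ± 0.59 in the 6 young and 1.03 ± 0.31 in the 6 aged libraries (SD). This lies just outside the threshold of 0.01. With list length as a covariate the change was 0.75 (adjusted p 0.26, limma), smaller in size than those of the Cd81 intron (-1.17) and Rac1 intron (-0.96) regions in the same fit. The Plxnc1 intron (-1.01), Itga5 upstream (-0.95) and Cd47 intron (0.77) regions were larger in size too. Each of these was called in lists of 1 age only and had to differ. By genotype the change with age was 1.14 ± 0.37 in WT (adjusted p 0.125, limma) and 1.24 ± 0.37 in Mlkl-/- (adjusted p 0.0978, limma). In Ptk2b, which encodes the related kinase PYK2, an intron region 15 kb from the 5′ end (chr14:66265824-66266350) ranked 15427, 10301 and 9681 (young WT), 4061, 6390 and 2527 (aged WT), 11445, 12471 and 10726 (young Mlkl-/-) and 5429, 5814 and 6385 (aged Mlkl-/-). It was called in every list, and the ages did not overlap. Mean normal scores of 0.98 ± 0.11 in the 6 young and 1.48 ± 0.18 in the 6 aged libraries (SD) gave a change of 0.50 ± 0.12 (SE) with a limma adjusted p of 0.0135. The promoter of Vcl (vinculin) ranked 1230, 1815 and 6166 (young WT), 355, 1414 and 5334 (aged WT), 6017, 5107 and 784 (young Mlkl-/-) and 2076, 5745 and 2378 (aged Mlkl-/-). That of Tln1 (talin), whose summit lies in an exon of Creb3, ranked 3358, 5575 and 5247 (young WT), 7259, 3538 and 16686 (aged WT), 14161, 13526 and 3866 (young Mlkl-/-) and 13500, 10793 and 5670 (aged Mlkl-/-). Both were called in every list. The Ptk2b promoter lay lower, with ranks of 19250 and 24111 (2 of 3 young WT), 28246 and 22089 (2 of 3 aged WT), 22001 and 19050 (2 of 3 young Mlkl-/-) and 29569 (1 of 3 aged Mlkl-/-). So did that of Fermt2, which encodes kindlin-2, with ranks of 24587 and 20349 (2 of 3 young WT), 22164 and 27964 (2 of 3 aged WT), 23494 (1 of 3 young Mlkl-/-) and 18691 (1 of 3 aged Mlkl-/-). In this group 26 of 40 regions were tested, with changes from -0.69 to 1.19 and a median of -0.0037, 12 above 0 and 14 below.

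**Figure D2:**
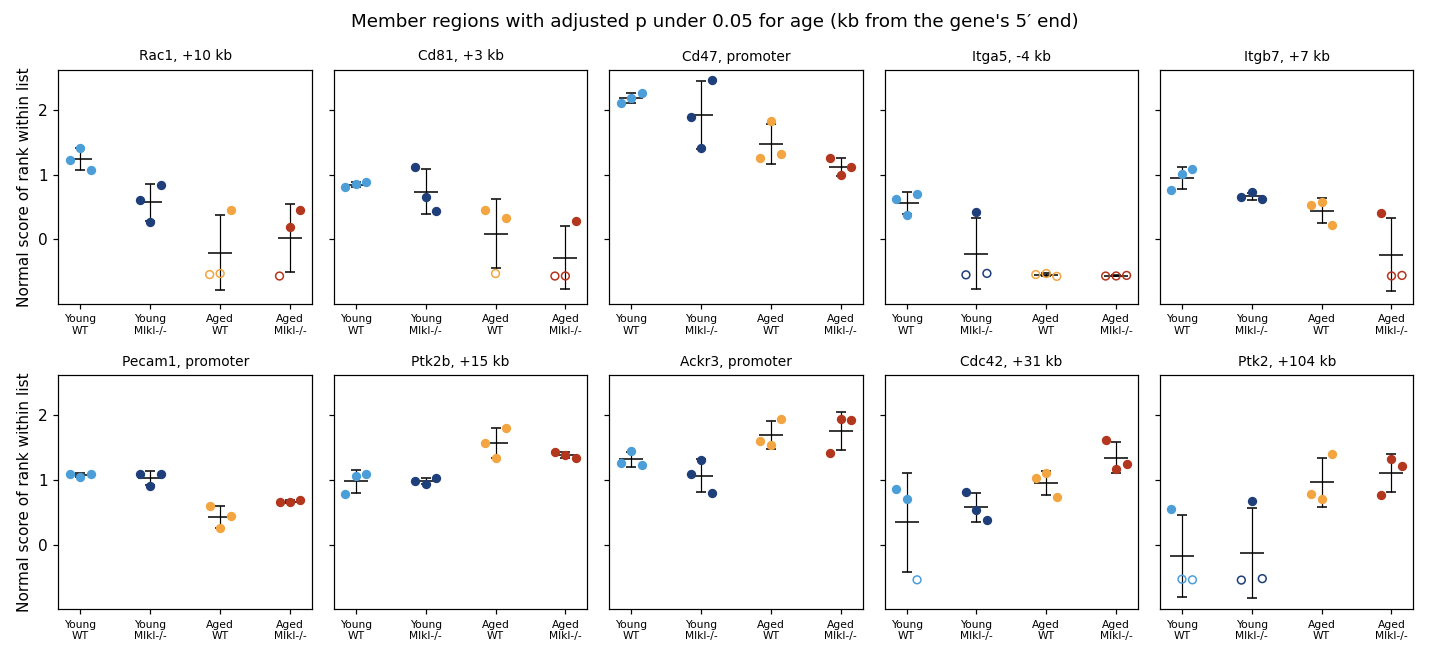
Normal score of the 10 member regions with an adjusted p under 0.05 for age in 12 libraries (points; open, not called), with the mean and SD of each group of 3 (bars); panels are ordered from the largest decrease, Rac1, to the largest increase, Ptk2. Ptk2, Ptk2b, Pecam1 and Itgb7 show no overlap between the 6 young and 6 aged libraries.

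Over both genotypes, 1 of 131 tested member regions (the Cd47 promoter) passed an adjusted p of 0.01 for age, beside 2.72% of 37886 tested regions. At an adjusted p under 0.05 there were 10, or 7.63%, beside 7.75% of all regions: 4 higher with age (4.42% of all regions) and 6 lower (3.34% of all regions). Ackr3, Pecam1, Ptk2b and Itgb7 among them were named after their values were seen, and Itga5 is the region among them that young lists alone called. Over the 131, 9 were called in lists of 1 age only and so met the minimum of lists through that age. With list length as a covariate the 10 had adjusted p from 0.0599 to 0.443 (limma). The unadjusted p was under 0.05 for 31 members, 23.7% beside 22.1%. The 6 young and 6 aged values did not overlap in 2 regions that were higher with age, beside 2.13% of all regions, and in 4 that were lower (Itgb7, Pecam1, Icam1 and a Cd81 region that lies near the start of Tssc4), beside 1.75%. The median change was 0.01 over the members and -0.01 over all regions. It was -0.07 in the 36 promoter regions, -0.19 in the 11 near another start and 0.06 in the 84 distal regions, beside -0.04 for all tested regions at a start and 0.03 for those away from one. At the 3 limma rules the members' shares lay near or below those of all regions.

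**Figure D3:**
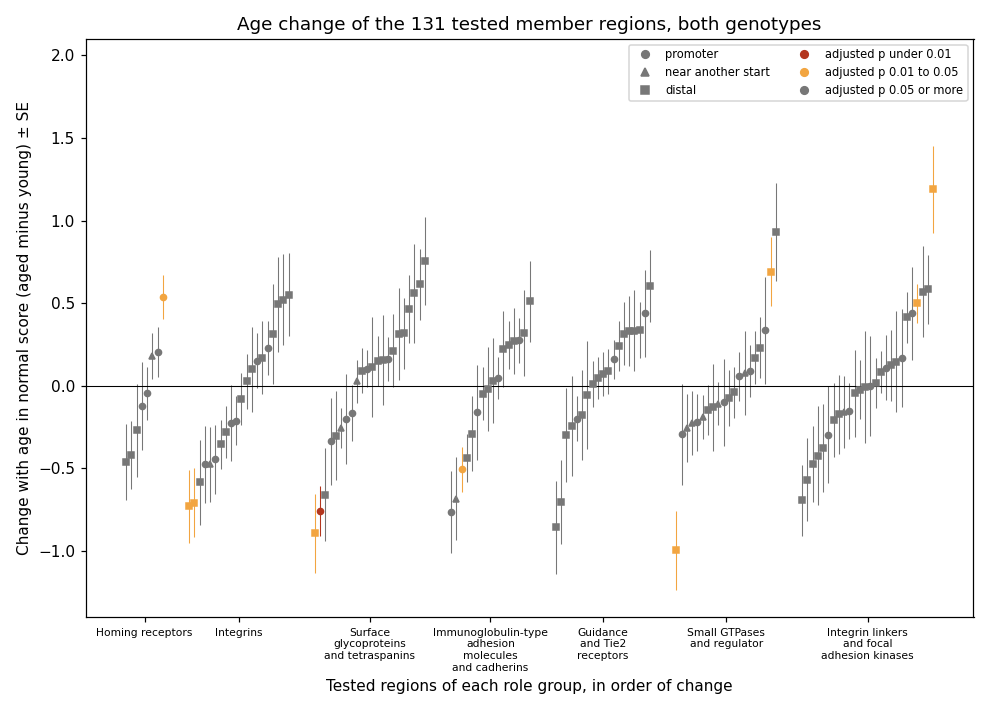
Change in normal score with age (aged minus young, both genotypes, ± SE) of the 131 tested member regions by role group, with the class given by the marker and the limma adjusted p by the color. Changes run from -0.997 in a Rac1 intron to 1.19 in a Ptk2 intron, and 1 region, the Cd47 promoter, has an adjusted p under 0.01.

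For age in WT, 0 of 131 regions passed by limma, beside 0.201% of all regions, and 18 had an unadjusted p under 0.05, or 13.7% beside 14.6%. At an adjusted p under 0.05 the Rac1 intron region was the only one, beside 1.9% of all regions. For age in Mlkl-/-, 0 passed by limma, beside 0.15%, and 20 had an unadjusted p under 0.05, or 15.3% beside 14.4%. The lowest adjusted p was that of the Ackr3 promoter, 0.0646 by limma.

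No member region passed the threshold between the genotypes. At 3 months 0 of 131 passed by limma and 7 had an unadjusted p under 0.05 (5.37% of all regions), at 18 months 0 passed and 5 had one (5.1%), and over both ages 0 passed and 5 had one (6.22%). The share of all regions that passed was 0 in each. The age by genotype interaction gave 0 by limma and 2 at an unadjusted p under 0.05, beside 4.8%. The largest increase in Mlkl-/- over both ages was in an intron of Nrp1, a semaphorin and VEGF co-receptor, 122 kb from its 5′ end (chr8:128480860-128481393), which gave no call (young WT), no call (aged WT), 27570 (1 of 3 young Mlkl-/-) and 27167, 28337 and 17850 (aged Mlkl-/-). It was higher by 0.60 ± 0.21 in Mlkl-/- (adjusted p 0.764, limma). A Jam3 intron region 45.7 kb from the 5′ end (chr9:27109402-27109951) ranked 7387, 15181 and 3443 (young WT), 6854, 7494 and 4996 (aged WT), 3371, 3269 and 5598 (young Mlkl-/-) and 787, 3509 and 1653 (aged Mlkl-/-), with a change of 0.49 ± 0.15 (adjusted p 0.764, limma). The largest change in size was a decrease at the Cd81 promoter, of -0.62 ± 0.26 (-0.21 with lists of unequal length), and the Itga5 promoter had one of -0.49 ± 0.23, both with an adjusted p of 0.764 by limma. In each of these 4 regions the libraries of the genotypes overlapped. Of the 131 tested regions 5 were called in lists of 1 genotype only, and so met the minimum of 3 lists through that genotype. These were the Nrp1 intron region, the Itga5 promoter and the Ptk2b, Tln1 and higher Itga6 regions given next. They had to differ between the genotypes, so their p-values are not read as tests. The other largest increases were in Cd82 (0.53 ± 0.27), Arhgap4 (0.44 ± 0.25), Ptk2b (0.44 ± 0.22) and Itga6 (0.42 ± 0.22), and the other largest decreases in Itgb7 (-0.48 ± 0.21), Itga6 (-0.48 ± 0.29), Tln1 (-0.42 ± 0.22) and the Plxnc1 promoter (-0.41 ± 0.26).

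A simpler reading is whether a region was called in all 3 lists of one group and none of the other. At equal length, the Itga5 upstream region was lost with age in WT (1 of 229, beside 1.15% of all regions) and 0 were gained (1.12%). In Mlkl-/- the Tek intron region and a region upstream of Ptk2 were gained with age (2, beside 1.39%), and 0 were lost (0.801%). Between the genotypes at 3 months 0 were gained (0.266%) and 0 lost (0.287%) in Mlkl-/-, and at 18 months the Nrp1 intron region was gained (1, beside 0.359%) and 0 were lost (0.231%). In the whole lists, regions of Cd82, Cdh5, Ptk2b and Cd47 were gained with age in WT (4, beside 3.61%), and regions of Cd82, Itgb2 and Itga5 were lost (3, beside 0.524%). In Mlkl-/- the Tek and Cd47 intron regions were gained (2, beside 2.66%) and 0 were lost (0.321%). A Ptk2b region upstream of the start was gained in Mlkl-/- at 3 months (1, beside 0.304%), and regions of Tln1 and Itgb2 were lost (2, beside 0.13%). At 18 months 0 were gained (0.439%) and 0 lost (0.248%).

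The number of member regions called in a library was read against the length of its list. Whole lists called 99 to 160 of the 229 regions, with 126 ± 10.5 (young) and 145 ± 13.5 (aged) for WT and 132 ± 30.4 (young) and 145 ± 16.5 (aged) for Mlkl-/- (SD, n = 3). At equal length these became 108 ± 5.69 and 101 ± 8.39 for WT and 102 ± 3.79 and 105 ± 2.52 for Mlkl-/-. Of the 229 regions, 53 (23.1%) were called in all 12 equal-length lists, beside 21.9% of the catalogue, and 56 (24.5%) in none, beside 26.4%.

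**Figure D4:**
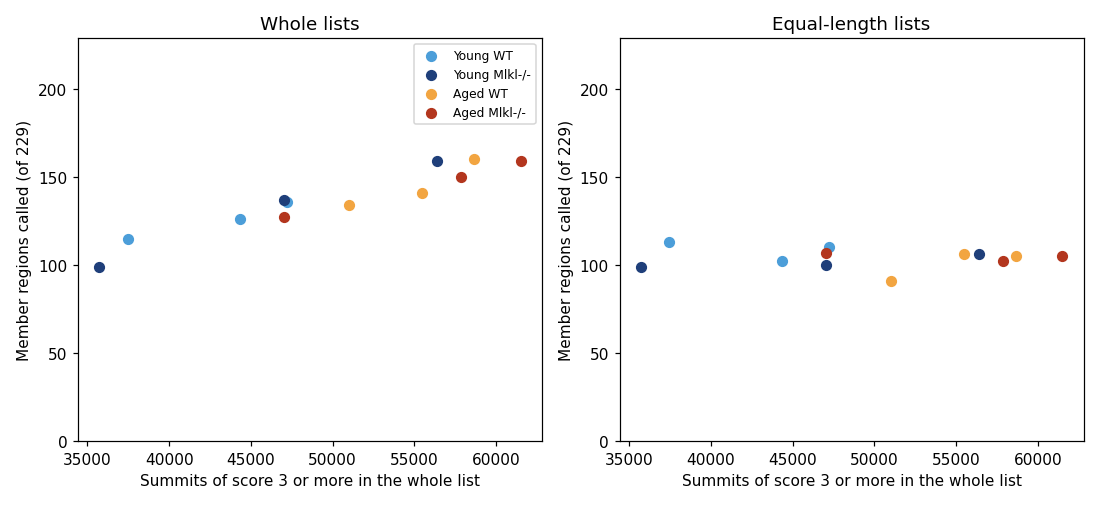
Member regions called (of 229) against the summits of score 3 or more in the library's whole list, in the whole lists (left) and in equal-length lists (right), with 1 point per library colored by group. Whole lists call 99 to 160 member regions and equal-length lists 91 to 113.

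Of 56 further adhesion and homing genes outside the 40, 52 had a tested region, 218 regions in all. For age over both genotypes, 0 were higher and 2 lower past the threshold (0.917% of 218, beside 2.72% of all regions, limma), and the median change was -0.06. The 2 were introns of Prex1, a Rac activator, with a change of -0.99 ± 0.19 (SE), and of Elmo1, a part of a Rac activator, with -0.55 ± 0.11 (SE). At an adjusted p under 0.05 there were 3 higher and 7 lower, together 4.59% beside 7.75% of all regions, of which 4.42% were higher and 3.34% lower. Among the 7 lower, an F11r intron region and a further Prex1 intron region were each called in 5 young and 0 aged lists. Those regions met the minimum of lists only through young lists, so they had to differ and their p is not read as a test. In every genotype comparison 0 passed by limma, with an unadjusted p under 0.05 in 14 of 218 regions for the young (beside 5.37% of all regions), in 8 for the aged (5.1%) and in 12 for the ages together (6.22%).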

How the data were processed

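ATAC-seq was done on 12 libraries of sorted HSCs, 3 in each of 4 groups, each of cells pooled from several mice and prepared on the same day. The authors aligned reads to mm10 with Bowtie2 2.5.3 and called peaks per library with MACS2 2.2.7.1; the submitters' notes also name bedtools 2.31.0 and edgeR 3.30.3. The deposited lists hold 1 summit a line with −log10 of its q-value (lowest 2.00 to 2.01), so no count test could be run and the authors' edgeR test was replaced by limma 3.58.1 on normal scores of within-list ranks. Summits of score 3 or more on chromosomes 1 to 19, X and Y were merged into 71006 regions; lists were shortened to their 35714 highest summits, and the 37886 that 3 or more lists called entered the test over 12 libraries with 4 group means, 7 contrasts and Benjamini-Hochberg adjustment over all of them, at 0.01. Genes came from GENCODE M21, and sequences from the RefSeq mm10 genome (pysam 0.24.0). The test was tried on simulated lists with known changes and noise drawn independently for each library, and no result here rests on that trial. Groups came from the labels. Replicates are pools, and p-values measure the spread between these libraries only. Member regions past the threshold, the 6 largest changes each way for age and for genotype, and the 2 highest and 2 lowest promoters of each role were named. The members and lists were chosen with earlier results of these data known. One B cell marker is not reported here. Alternatives are given in the closing section.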

Additional observations from a re-analysis of the deposited data

How the results depend on the processing

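The count of member regions past the threshold for age over both genotypes was 1, beside 2.72% of all regions. Each share below is that of all regions in the same setting. The count was 2 with all deposited scores (2.79%) and with Y-gene summits as a covariate (0.871%). It was also 2 with regions called in at least 1 (1.94%) or at least 6 lists (3.83%). A catalogue merged from the equal-length lists gave 3 (3.22%). Lists of unequal length gave 7 of 176 (3.88%), and an adjusted p under 0.05 gave 10 (7.75%). The count was 0 with list length as a covariate (0.158%) or with only the 9 libraries with the tag (0.616%). Leaving out 1 library gave 0 to 2, beside 1.81% to 2.82% of all regions. The count was 0 without Young WT 2, Young WT 3, Young Mlkl-/- 1, Aged WT 1, Aged Mlkl-/- 2 or Aged Mlkl-/- 3. It was 2 without Young Mlkl-/- 2 or Aged WT 2. Age in WT gave 1 at an adjusted p under 0.05; every other comparison gave 0 under each alternative run. In the labels, libraries of different groups share only a replicate number. Over same-numbered libraries, deviations from the group means had correlations of -0.30 to 0.13, and over other-numbered ones -0.18 to 0.31. The highest was between Young Mlkl-/- 2 and Aged WT 3, which both lack the tag. With the replicate block the count was 1, beside 2.04% of all regions, and no call of another comparison changed. With list length as a covariate 0.158% of all regions passed, and the 12 age changes named by rule kept their sign with adjusted p of 0.0599 to 0.803. Under that covariate Ptk2 went from 1.19 to 0.75, Rhoh from 0.93 to 0.44, Cdc42 from 0.69 to 0.44, Cd47 from -0.76 to -0.44 and Cd44 from 0.56 to 0.26. The 4 regions added after seeing the data (Ackr3, Pecam1, Ptk2b and Itgb7) kept their sign, with adjusted p of 0.097 to 0.265. No named change reversed its sign in the alternatives run. The cause of these shifts was not tested. Without read counts, depth could not be weighed, and regions near the lowest called rank turn on small differences in score.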
